A study of Capra hircus with 4 samples.

Results

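Insulin, insulin-like growth factor (IGF) and mTOR signalling was followed in the goat muscle libraries through 10 listed genes, of which the authors' goat gene table held 7 under these names (IGF2, INSR, IRS1, PIK3R1, AKT1, AKT2 and MTOR). These 7 genes were represented by 9 unigenes, the sequences assembled from the reads, out of 21194 nuclear unigenes paired with 11207 goat gene names. IGF1, IGF1R and IGFBP5 were not held under these spellings. Of the 7 genes, 6 had at least 20 counts over the 4 libraries, and the entry named AKT1 had 1 count in all.

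The RNA came from Longissimus dorsi muscle of Cashmere Goats labelled as 2 months old, and no genotype was given. The treated goats received ractopamine, a β-agonist feed additive, by mouth at 1 mg/kg body weight for 28 days, followed by 21 days of withdrawal, while the control label carries no treatment. There were 1 control library and 3 treated libraries, called treated libraries 1, 2 and 3. The labels treat the 3 as replicates without a sampling day, while the study sampled during dosing and during withdrawal, so time, animal and library cannot be told apart.

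Insulin and the IGFs bind receptor tyrosine kinases on the muscle fibre, IGF-binding proteins hold the IGFs in the tissue, and the receptors pass the signal through IRS adaptors to PI3K. PI3K activates AKT, which releases mTOR complex 1 to drive protein synthesis and keeps the FOXO factors out of the nucleus, where they switch on genes of muscle breakdown. β-agonists enlarge skeletal muscle, and this route of protein gain is one that is often examined in such animals.

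The unigene sequences show which transcript each name stands for. The first 150 bases of the predicted coding sequences of IGF2 (537 bases in all), AKT2 (1254 bases) and MTOR (7650 bases) are given in lower case. They were chosen because these unigenes mark the ends of the route from ligand to kinase. The opening ATG of each prediction is in capitals, and whether it is the start codon of the full gene was not tested.
IGF2: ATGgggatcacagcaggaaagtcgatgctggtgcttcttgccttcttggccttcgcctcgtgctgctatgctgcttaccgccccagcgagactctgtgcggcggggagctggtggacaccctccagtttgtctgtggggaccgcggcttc
AKT2: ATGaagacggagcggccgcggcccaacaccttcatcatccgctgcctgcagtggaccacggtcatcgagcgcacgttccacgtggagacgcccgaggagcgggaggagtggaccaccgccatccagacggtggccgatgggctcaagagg
MTOR: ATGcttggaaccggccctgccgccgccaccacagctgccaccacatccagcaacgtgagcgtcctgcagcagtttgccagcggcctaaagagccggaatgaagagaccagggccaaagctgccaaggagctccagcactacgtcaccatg

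Of these, the unigene named AKT2 had only 83% protein identity to goat AKT2, and its best nucleotide match and its best Swiss-Prot match were AKT1. It is called AKT2 here after the goat gene table. The unigene named AKT1 was 267 bases long, with 100% protein identity to goat AKT1 in the goat gene table. In the annotation it had no protein match, and no gene symbol was read from a nucleotide match.

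The name IRS1 was given to 3 unigenes, and 2 of them matched IRS2, the related adaptor, better. The IRS1 unigene c8815_g1 (92% identity to goat IRS1) and the unigene c29781_g1 (64%) are compared over their most alike 150 bases, at 615 to 764 of the coding sequence of the first and 87 to 236 of the aligned strand of the second, with the 24 differing bases in capitals.
IRS1 c8815_g1: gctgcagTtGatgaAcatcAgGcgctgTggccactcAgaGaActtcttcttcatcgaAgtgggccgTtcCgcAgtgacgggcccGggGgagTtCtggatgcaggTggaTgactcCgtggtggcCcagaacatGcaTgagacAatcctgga
IRS1 c29781_g1: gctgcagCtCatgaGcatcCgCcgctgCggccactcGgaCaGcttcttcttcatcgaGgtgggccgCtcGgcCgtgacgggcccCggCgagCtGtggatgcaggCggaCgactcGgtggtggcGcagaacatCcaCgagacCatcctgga

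The insulin receptor (INSR) and the IGF1 receptor, which the table spells IGF-IR, are close relatives. Over 3513 aligned bases of their coding sequences, 67.9% were identical. Their most alike 150 bases, at 3151 to 3300 of INSR and 2716 to 2865 of IGF-IR, differed at 25 bases, shown in capitals.
INSR: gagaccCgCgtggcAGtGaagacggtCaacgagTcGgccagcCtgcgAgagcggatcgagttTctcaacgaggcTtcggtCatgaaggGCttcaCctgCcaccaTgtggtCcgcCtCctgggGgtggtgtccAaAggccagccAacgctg
IGF-IR: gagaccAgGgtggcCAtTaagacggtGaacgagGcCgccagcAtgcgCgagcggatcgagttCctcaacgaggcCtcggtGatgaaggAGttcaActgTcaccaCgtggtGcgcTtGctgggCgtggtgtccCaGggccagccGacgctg

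The libraries held 6675218 to 8533046 expected counts. Counts of the 26 mitochondrially encoded unigenes made up 23.8% of the goat-paired counts of the control library, against 42.8%, 97.9% and 55.2% in treated libraries 1 to 3. What remained for nuclear genes was 6086312, 3991046, 133802 and 2697657 counts in the same order. Treated library 2 therefore stood apart, and 3 counts in it equalled 22.4 per 1000000 nuclear counts, against 0.493 in the control library. For this reason the ratios of the 6 genes are given relative to all goat-paired counts and relative to the nuclear ones, called the goat-paired and the nuclear scale, and other ratios name their scale. Of 13 muscle fibre markers, 8 were in the table, with a summed level of 96133 to 155920 per 1000000 nuclear counts, and ACTA1 was at 0 in treated library 2.

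The 7 genes together gave 258 per 1000000 goat-paired counts in the control library, against 98.4, 4.59 and 83.3 in treated libraries 1 to 3. Per 1000000 nuclear counts the sums were 339, 172, 217 and 186. For the 9 unigenes that the goat gene table pairs with these genes, the control library was thus the highest on both scales. Further unigenes matching the same genes, given below, are not in these sums, so the order of the libraries holds for the 9 only. In tissue RNA, fewer cells of a type and less RNA per cell cannot be told apart.

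**Figure D1:**
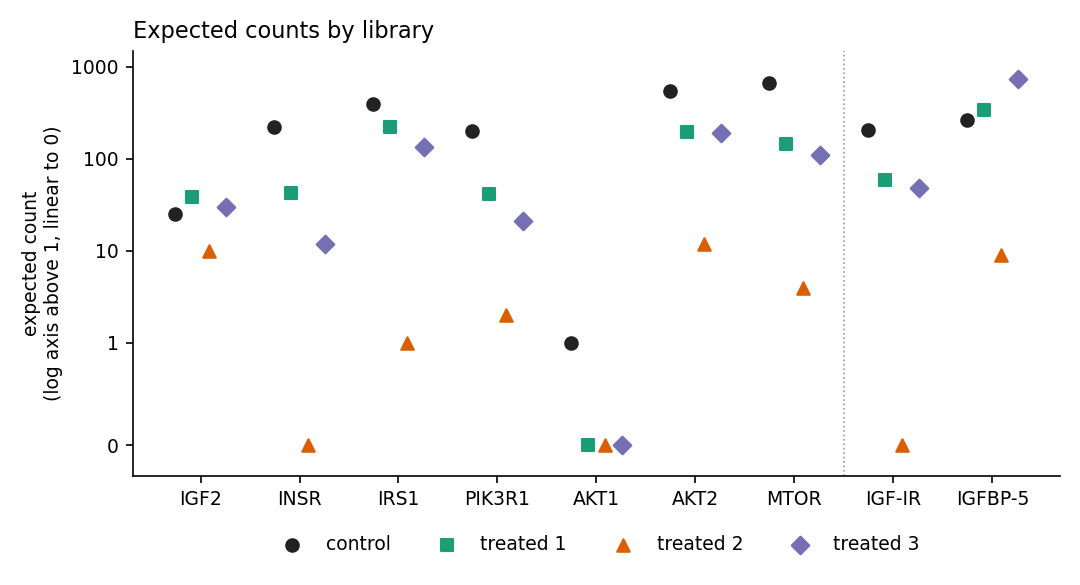
Expected counts (vertical axis, logarithmic above 1 and linear down to 0) of the 7 genes in the control library and the 3 treated libraries, with 2 unigenes spelled otherwise right of the dotted line. INSR, IRS1, PIK3R1, AKT2 and MTOR were highest in the control library, while IGF2 and IGFBP-5 were not.

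IGF2, the growth factor of fetal and regenerating muscle, was counted 25 times in the control against 39, 10 and 30 times in treated libraries 1 to 3. It was the only one of the 6 genes with more counts in a treated library than in the control library. Its x-fold, the ratio of its share in a treated library to its share in the control library, was 1.79 (exact 95% interval 1.05 to 3.08), 0.505 (0.217 to 1.09) and 1.59 (0.905 to 2.82) on the goat-paired scale. On the nuclear scale the x-folds were 2.38 (1.40 to 4.10), 18.2 (7.80 to 39.2) and 2.71 (1.54 to 4.80), so the direction in treated library 2 turned with the scale. All these intervals cover counting error only.

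INSR, the receptor for insulin, was counted 220 times in the control against 43, 0 and 12 times in treated libraries 1 to 3. Every treated library was below the control library. Its x-fold was 0.224 (0.157 to 0.311) in treated library 1 and 0.0724 (0.0368 to 0.129) in treated library 3 on the goat-paired scale. On the nuclear scale these were 0.298 (0.210 to 0.415) and 0.123 (0.0626 to 0.219), which kept the direction. In treated library 2 INSR had 0 counts. The exact upper bound of its x-fold there was 0.0214 on the goat-paired scale but 0.769 on the nuclear scale. Set at the floor of 3 counts instead, INSR was 58.0-fold lower on the goat-paired scale and 1.61-fold lower on the nuclear scale. Among the tested goat genes the INSR x-fold was at percentile 13.9 in treated library 1 and at percentile 2.52 in treated library 3. Between treated libraries 1 and 3 INSR also differed, by a ratio of 2.42 (1.25 to 5.05) on the nuclear scale.

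INSR was assembled as 2 transcripts. The longer, of 4989 bases, held 181 of 220 counts in the control library, which is 82.3% (Wilson 95% interval 76.7 to 86.8). It held 60.5% (45.6 to 73.6) of the INSR counts in treated library 1 and 58.3% (31.95 to 80.7) in treated library 3. The shorter, of 1951 bases, had 39, 17, 0 and 5 counts. The interval of the longer transcript in treated library 1 thus lay below that of the control library. In treated library 3 the 12 counts leave an interval that overlaps that of the control library. Transcript counts are the authors' estimates, and these intervals leave out the uncertainty of dividing reads between the 2 transcripts.

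The IGF1 receptor, under the spelling IGF-IR, was counted 206 times in the control against 59, 0 and 48 times in treated libraries 1 to 3. It was looked up after the counts had been seen and is not among the 6 genes. On the goat-paired scale its x-fold was 0.328 (0.241 to 0.440) in treated library 1 and 0.309 (0.221 to 0.425) in treated library 3, above that of INSR in the latter. The nuclear x-folds were 0.437 and 0.526.

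IRS1, the adaptor that docks on both receptors, was counted 392 times in the control against 223, 1 and 136 times in treated libraries 1 to 3. Its goat-paired x-folds were 0.651 (0.550 to 0.769), 0.00322 (8.14e-05 to 0.0181) and 0.460 (0.376 to 0.561). On the nuclear scale they were 0.868 (0.733 to 1.03), 0.116 (0.00293 to 0.650) and 0.783 (0.639 to 0.954). The 3 unigenes behind the name did not move alike. The unigene that matches IRS1 itself had 325, 219, 1 and 133 counts, whereas c7003_g1 had 53, 3, 0 and 2 and c29781_g1 had 14, 1, 0 and 1. In treated library 1 the goat-paired x-fold was 0.771 (0.647 to 0.918) for IRS1 proper but 0.0648 (0.0130 to 0.200) for the IRS2-matching c7003_g1.

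PIK3R1, the regulatory subunit of PI3K, was counted 200 times in the control against 42, 2 and 21 times in treated libraries 1 to 3. The x-folds were 0.240 (0.168 to 0.337), 0.0126 (0.00152 to 0.0462) and 0.139 (0.0844 to 0.219) on the goat-paired scale. On the nuclear scale they were 0.320 (0.224 to 0.449), 0.455 (0.0547 to 1.66) and 0.237 (0.143 to 0.372). For this unigene, treated libraries 1 and 3 lay below the control library on both scales, and in treated library 2 the interval on the nuclear scale included 1.

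AKT2, the table's name for the AKT unigene whose nucleotide and Swiss-Prot matches are AKT1, was counted 547 times in the control against 194, 12 and 192 times in treated libraries 1 to 3. Its goat-paired x-folds were 0.406 (0.343 to 0.479), 0.0277 (0.0142 to 0.0488) and 0.466 (0.393 to 0.550). The nuclear x-folds were closer to 1, at 0.541 (0.457 to 0.638), 0.998 (0.512 to 1.76) and 0.792 (0.668 to 0.935). Between treated libraries 1 and 3 AKT2 differed by a ratio of 0.683 (0.557 to 0.838) on the nuclear scale, the other way from INSR. The 267-base unigene named AKT1 had 1 count in the control library and 0 in the others, which is below the floor and gives no fold. Grouped by nucleotide match instead, AKT1 had 548, 194, 12 and 192 counts and AKT2 had 7, 3, 0 and 4. The AKT1 group takes in the 267-base unigene by its table name. By the nucleotide match, the values given for AKT2 thus belong to AKT1, the widely expressed AKT kinase. AKT2 had the most counts over the 4 libraries, so its pattern was looked for elsewhere. Among 4417 goat genes with at least 100 control counts, those nearest to it by Euclidean distance over the 3 log2 x-folds were EEF1G (0.12), PLA2G16 (0.14) and PLD3 (0.14).

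MTOR, the kinase at the centre of the growth response, was counted 677 times in the control against 145, 4 and 110 times in treated libraries 1 to 3. All treated libraries were below the control library. The goat-paired x-folds were 0.245 (0.203 to 0.294), 0.00747 (0.00203 to 0.0192) and 0.216 (0.175 to 0.264). The nuclear x-folds were 0.327 (0.271 to 0.391), 0.269 (0.0730 to 0.691) and 0.367 (0.297 to 0.449), below 0.6 in each. Between treated libraries 1 and 3 MTOR differed by a ratio of 0.891 (0.691 to 1.15), an interval that includes 1. Its 2 transcripts, of 8728 and 8701 bases, held 52.4% and 47.6% of the control counts, against 49.7% and 50.3% in treated library 1.

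**Figure D2:**
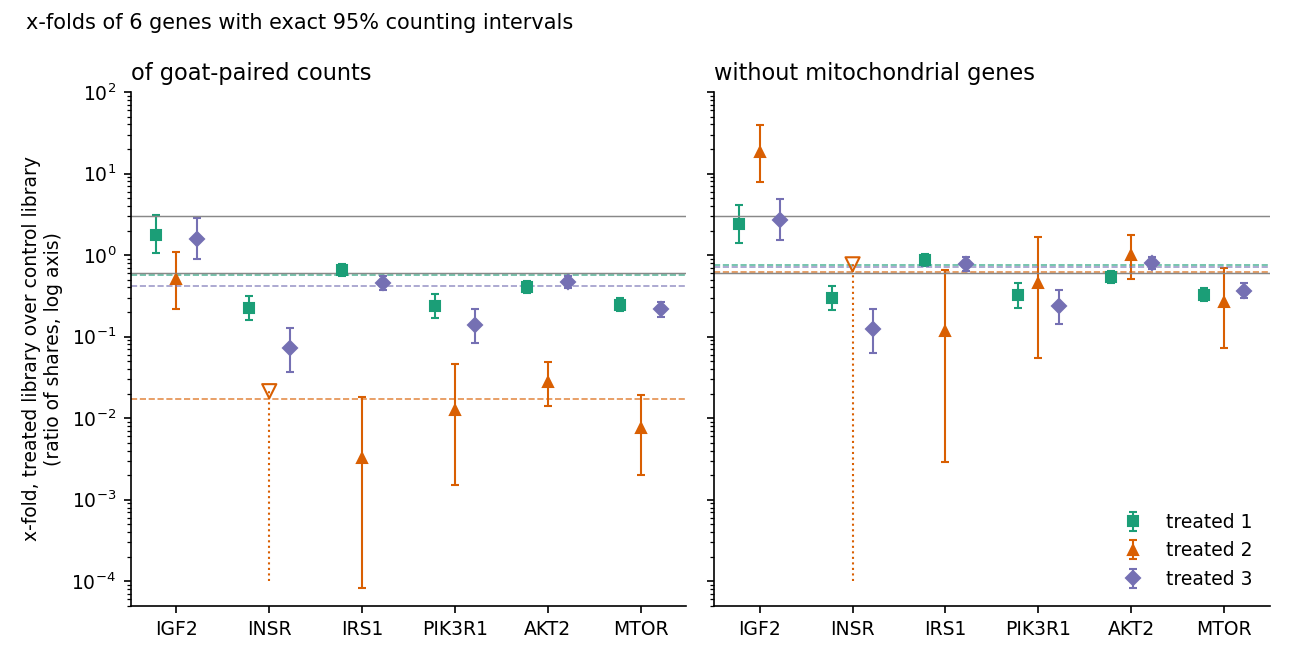
x-folds (vertical axis, logarithmic) of the 6 genes in the 3 treated libraries relative to the control library, on the goat-paired scale (left) and the nuclear scale (right), with exact 95% counting intervals, grey lines at 0.6 and 3 and dashed lines at the median of all tested goat genes in each library. The open triangle is the upper bound for INSR in treated library 2, where it had 0 counts, and IGF2 is the only gene above 1 in treated libraries 1 and 3.

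With 1 control library, the x-folds have no replicate check, so the genes were counted past the limits of 0.6 and 3 and set beside all 8633 goat genes with at least 20 counts. On the goat-paired scale, 4 of the 6 genes were below 0.6 in treated library 1, where 53.7% of all goat genes were. In treated library 2 it was 6 of 6 against 98.3%, and in treated library 3 it was 5 of 6 against 71.2%. INSR, PIK3R1, AKT2 and MTOR were below 0.6 in all 3, which held for 48.4% of all goat genes. None of the 6 was above 3 in any treated library, where 3.48% of goat genes were. These shares lie near the background.

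On the nuclear scale, 4 of the 6 genes were below 0.6 in treated library 1 against 38.2% of all goat genes. In treated library 2 it was 3 of 6 against 24.3%, and in treated library 3 it was 3 of 6 against 39.0%. PIK3R1 and MTOR were below 0.6 in all 3 libraries, as were 9.52% of goat genes, and IGF2 was above 3 in treated library 2, as were 12.0% of goat genes. In treated library 2, 2031 of the 8633 goat genes had no fold on this scale and could not be counted past a limit. They stayed in the total behind 24.3%, 9.52% and 12.0%, which makes these shares lower. The median nuclear x-fold of the 6 genes was 0.434, 0.362 and 0.575, beside 0.749, 0.615 and 0.717 for all tested goat genes. On the goat-paired scale the medians were 0.326, 0.0101 and 0.338 beside 0.562, 0.0171 and 0.422. The 3 ratios of a gene share the control library.

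Length moved with the x-folds of goat genes. Genes whose longest unigene reached 4000 bases had median goat-paired x-folds of 0.438 in treated library 1 and 0.315 in treated library 3, against 0.763 and 0.594 below 1000 bases. INSR, IRS1 and MTOR have unigenes of 4989, 5794 and 8728 bases, and IGF2 has the shortest of the 6, at 1531 bases. The part of length in the results was not tested.

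Per length, the order of the genes differed between libraries. In the control library the authors' FPKM was 28.45 (exact Poisson 95% interval 26.1 to 30.9) for AKT2 and 9.32 (8.63 to 10.05) for MTOR, followed by PIK3R1 at 8.46, INSR at 7.04, the main IRS1 unigene at 6.81 and IGF2 at 2.20. The intervals of MTOR and PIK3R1 overlapped, as did those of PIK3R1, INSR and IRS1 in turn. Only AKT2 at the top and the IGF2 unigene of the goat gene table at the bottom thus stood clear. In treated library 3 the order was AKT2 (12.7), IRS1 (3.56), IGF2 (3.37), MTOR (1.93), PIK3R1 (1.13) and INSR (0.65). This IGF2 unigene thus had the lowest level per length in the control library and the third in treated library 3. Its interval in treated library 3 overlapped those of IRS1 above it and MTOR below it. These places hold for that unigene alone. Another unigene matching IGF2, c2768_g1 of 1412 bases, had 109 counts against 25 in the control library and 225 against 30 in treated library 3.

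The labels call the treated libraries replicates, and edgeR's quasi-likelihood test was fitted on that basis, with the spread taken from the treated libraries alone. It called 51 of 8633 goat genes at an adjusted p below 0.05, which is 0.591%, and 0 of the 6 genes. At an unadjusted p below 0.05, IGF2 and INSR passed, where 11.7% of all goat genes did. The log2 fold change of IGF2 was 2.57 ± 0.96 (SE, edgeR adjusted p = 0.206), and that of INSR was -1.96 ± 0.74 (edgeR adjusted p = 0.214). For MTOR it was -1.25 ± 0.70 (edgeR adjusted p = 0.519) and for PIK3R1 -1.38 ± 0.74 (edgeR adjusted p = 0.479). AKT2 at -0.10 ± 0.75 and IRS1 at -0.21 ± 0.75 were within 1 SE of 0, and their signs turned without treated library 1 (AKT2, 0.04) and without treated library 2 (IRS1, 0.13). These sizes depended on the scaling and on single libraries. With all goat-paired counts as library size, IGF2 was at 0.37 ± 3.10, INSR at -3.33 ± 2.91, MTOR at -2.68 ± 2.98 (SE) and PIK3R1 at -2.93 ± 2.91. IGF2 was at 1.74 ± 0.73 without treated library 2 and at 3.15 ± 1.16 without treated library 1, where INSR was at -2.89 ± 1.05. DESeq2 also called 0 of the 6 genes, with 1 at an unadjusted p below 0.05. A p that misses the threshold does not show that the levels were alike.

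The same genes are represented by further unigenes that the goat gene table does not pair with them, found by the best nucleotide match after the counts had been seen. For INSR, 3 unigenes without a match to any protein had 226, 229, 2 and 61 counts in the control and treated libraries 1 to 3. Their goat-paired x-fold in treated library 1 was 1.16 (0.961 to 1.40), against 0.224 for the coding INSR unigene, and in treated library 3 it was 0.358 (0.265 to 0.477) against 0.0724. The 3 such PIK3R1 unigenes had 224, 317, 2 and 86 counts, with an x-fold of 1.62 (1.36 to 1.93) in treated library 1 against 0.240 for the coding one and of 0.509 (0.393 to 0.656) in treated library 3 against 0.139. IRS2 showed the same split, with 71, 166, 0 and 26 counts without a protein match and 142, 33, 2 and 13 with one. For IRS1 the unigene without a protein match had 58, 71, 1 and 43 counts.

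**Figure D3:**
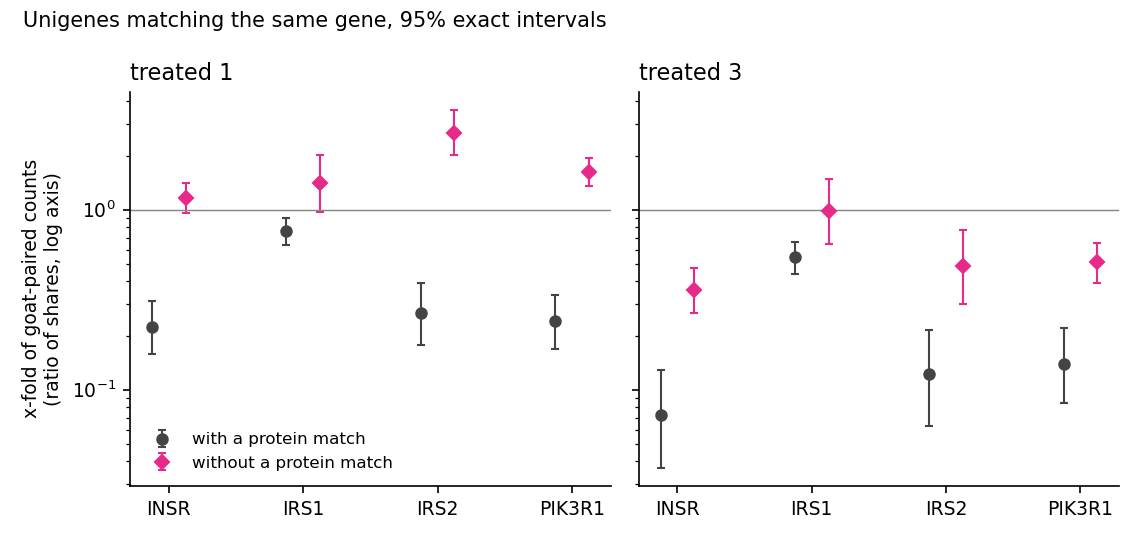
Goat-paired x-folds (vertical axis, logarithmic, exact 95% intervals) in treated libraries 1 and 3 of unigenes with and without a protein match whose best nucleotide match is the same gene. In both libraries the unigenes without a protein match lie above those with one for INSR, IRS1, IRS2 and PIK3R1.

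This split was not particular to these genes. Of 1772 genes with at least 20 counts in both kinds of unigene, those without a protein match had the higher x-fold in 89.3%, 49.1% and 83.4% of cases, in the order of the treated libraries. In treated library 2 they had the lower x-fold in 525 genes, and 377 were equal. The median x-folds in treated library 1 were 0.317 with and 1.22 without a protein match. Summed over all unigenes by nucleotide match, INSR had 446, 272, 2 and 73 counts and PIK3R1 had 424, 359, 4 and 107. The goat-paired x-fold in treated library 1 then became 0.698 (0.598 to 0.814) for INSR and 0.969 (0.840 to 1.12) for PIK3R1. The nuclear x-folds there were 0.930 (0.797 to 1.08) and 1.29 (1.12 to 1.49), so summed PIK3R1 was above the control library on that scale. In treated library 3 the goat-paired x-fold remained below 0.6, at 0.217 (0.167 to 0.279) for INSR and 0.335 (0.268 to 0.415) for PIK3R1. The nuclear ones were 0.369 (0.284 to 0.474) and 0.569 (0.456 to 0.705).

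IGF2 also had a unigene with more counts outside the goat gene table. Unigene c2768_g1, of 1412 bases, matched cattle IGF2 mRNA, and its only protein match was to an uncharacterised protein. It was counted 109 times in the control against 435, 98 and 225 times in treated libraries 1 to 3. Its goat-paired x-fold was 4.57 (3.70 to 5.69) in treated library 1 and 1.14 (0.856 to 1.51) in treated library 2. Treated library 3 was above the control too, at 2.74 (2.17 to 3.47), as it was for the IGF2 unigene of the table, whose interval included 1 there. The nuclear x-folds were 6.09, 40.9 and 4.66.

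IGFBP5, which holds IGFs in the matrix of muscle, was represented by the spelling IGFBP-5. It was counted 265 times in the control against 341, 9 and 744 times in treated libraries 1 to 3, and its log2 fold change was 2.11 ± 0.93 (edgeR adjusted p = 0.328). Without treated library 3 it was 1.06 (edgeR adjusted p = 0.942). The goat-paired x-folds were 1.47 (1.25 to 1.74), 0.0429 (0.0194 to 0.0827) and 3.72 (3.23 to 4.30). The nuclear ones were 1.96 (1.67 to 2.31), 1.54 (0.699 to 2.98) and 6.33 (5.50 to 7.32), so the direction in treated library 2 turned with the scale.

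Around the members, 95 further genes of the route were listed, 80 were in the goat gene table and 72 had at least 20 counts. On the goat-paired scale 42, 71 and 54 of the 72 were below 0.6 in treated libraries 1, 2 and 3, and 39 were so in all 3. These are 58.3%, 98.6%, 75% and 54.2%, beside 53.7%, 98.3%, 71.2% and 48.4% of all tested goat genes. On the nuclear scale it was 33, 28 and 36, with 14 in all 3, which are 45.8%, 38.9%, 50.0% and 19.4% beside 38.2%, 24.3%, 39.0% and 9.52%. Above 3 on the goat-paired scale were 1, 0 and 0 of the 72, while 3.48% of all goat genes were so in at least 1 library. On the nuclear scale 2, 6 and 0 of the 72 were above 3, and in treated library 2 12.0% of all goat genes were. Genes without a fold in treated library 2 stayed in the totals of both the 72 and all goat genes. The median nuclear x-folds of the 72 were 0.640, 0.356 and 0.605, each below that of all tested goat genes. By edgeR 1 of the 72 was called, FOXO1. An unadjusted edgeR p below 0.05 was found for 11 of the 72, beside 1012 of all 8633 goat genes, which is 11.7%.

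Among ligands and binding proteins, IGFBP3, IGFBP4 and IGFBP6, carriers of IGFs outside the cell, were named after their values were seen. In the order control, treated 1, 2 and 3, IGFBP3 had 34, 94, 7 and 40 counts, IGFBP4 had 83, 58, 15 and 110, and IGFBP6 had 68, 107, 33 and 76. Their log2 fold changes were 2.47 ± 0.91, 2.04 ± 0.90 and 3.13 ± 0.99 (edgeR adjusted p = 0.194, 0.326 and 0.115), so none was called. In treated library 2 their goat-paired x-folds were 0.260, 0.228 and 0.613 but their nuclear ones 9.37, 8.22 and 22.1, so the direction turned with the scale. IGFBP4 also turned in treated library 1 (0.800 against 1.07), and it lay on the lower side of 0 in edgeR's fit with all or all goat-paired counts as library size. Of 8 fibroblast and connective tissue markers, 5 were in the table, and their summed level per 1000000 nuclear counts was 138 in the control library, then 199, 2407 and 290 after treatment. Without LUM, their leading gene, it was 85.9, 91.5, 2115 and 116. PDGFRA, a defining fibroblast marker, was at 0 in every treated library. Of 7 adipocyte markers 5 were in the table, at 204, 334, 1129 and 157 on the same scale. Without PLIN4, their leading gene, the sums were 51.4, 280, 1121 and 63.4, so treated library 3 turned from below to above the control library. Of 7 macrophage markers 5 were in the table, at 2.14, 23.3, 44.8 and 6.30. The part of these cells in the IGF2 and binding protein values was not tested.

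Among receptors, GHR, the growth hormone receptor, was counted 478 times in the control against 30, 1 and 51 times in treated libraries 1 to 3. Its nuclear x-folds were 0.0957, 0.0952 and 0.241. Among PI3K genes, PIK3CB, a catalytic subunit, had 25, 0, 0 and 2 counts, and its edgeR log2 fold change was -3.22 ± 1.25 (edgeR adjusted p = 0.229).

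Among AKT substrates, FOXO1, the factor that turns on muscle breakdown genes, was counted 251 times in the control against 15, 0 and 1 times in treated libraries 1 to 3. FOXO1 was the only gene of the list that edgeR called, with a log2 fold change of -3.86 ± 0.81 (edgeR adjusted p = 0.0100). The call was lost without treated library 2 (-3.79, edgeR adjusted p = 0.0545), without treated library 3 (-3.32, edgeR adjusted p = 0.299), in DESeq2 (-4.05, adjusted p = 0.277) and with all counts (adjusted p = 0.962) or all goat-paired counts (adjusted p = 0.978) as library size. Its paralog FOXO3 had 663, 93, 6 and 63 counts and a log2 fold change of -1.66 ± 0.71 (edgeR adjusted p = 0.298). AKT1S1, the mTOR inhibitor PRAS40, had 369, 151, 1 and 204 counts, with nuclear x-folds of 0.624, 0.123 and 1.25 and a goat-paired one of 0.733 in treated library 3.

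Among nutrient and energy inputs, SESN1 and SESN3, the sestrins that restrain mTOR complex 1, had 723, 87, 3 and 57 counts and 39, 2, 2 and 5 counts. PRKAA2, the muscle catalytic subunit of AMPK, had 41, 2, 0 and 5 counts. LPIN1, an mTOR complex 1 target in lipid metabolism, was counted 1302 times in the control against 1407, 2 and 270 times in treated libraries 1 to 3. GAPDH, the reference gene of the study, had 111313, 66565, 4205 and 84905 counts, and its nuclear x-folds were 0.912, 1.72 and 1.72, against 0.684, 0.0477 and 1.01 on the goat-paired scale.

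**Figure D4:**
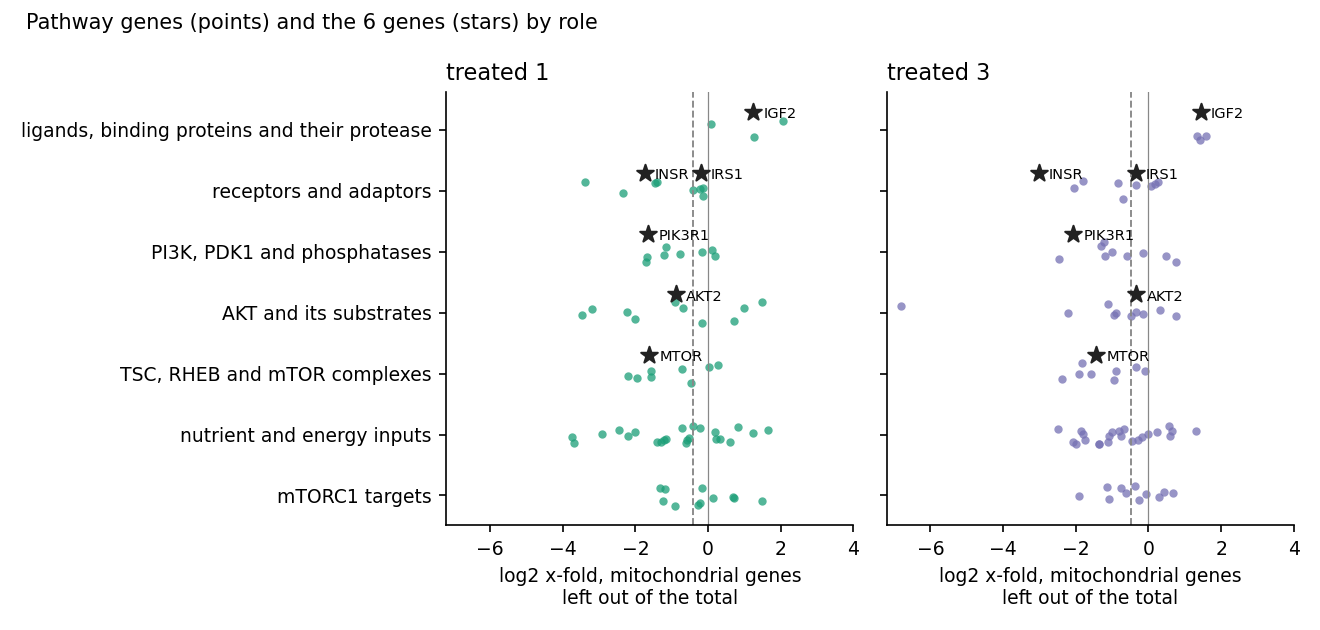
Log2 x-folds on the nuclear scale (horizontal axis) of the tested pathway genes (points) and the 6 genes (stars) by role in treated libraries 1 and 3, with a dashed line at the median of all tested goat genes and a full line at 0. IGF2, IGFBP3, IGFBP4 and IGFBP6 lie right of 0 on this scale (IGFBP4 in treated library 1 does not on the goat-paired one), while INSR, PIK3R1 and MTOR lie left of the median, and PIK3CB, with 0 counts in treated library 1, is not drawn there.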

How the data were processed

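RNA of 4 libraries was sequenced and assembled by the authors into 59774 unigenes. The expected count, which the authors deposited per unigene and transcript, is their estimate of fragments, and all values were whole. FPKM, deposited beside it, is that count per kilobase and per 1000000 fragments. The percent identity of each protein match was taken from the table the authors deposited. TPM, which the authors deposited as transcripts per 1000000, and their interval tables of FPKM classes were not used. FastQC 0.10.1 is named in the submitters' processing notes, while the tools for assembly and counting are not given in the sources used here. No goat build is named, so no chromosome positions are given. The authors' table pairs unigenes with goat genes.

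Counts were summed per goat gene name. The x-fold is the ratio of shares of the goat-paired counts, with limits 0.6 and 3 and a minimum of 20 counts over the 4 libraries. A count of 0 entered as 3 counts, and no fold was given where both counts were at most 3 or where that floor put the bound on the other side of 1. This last condition was added after the files had been seen. Intervals are exact Clopper-Pearson intervals at 95% for ratios, Poisson for FPKM and Wilson for shares, and they cover counting error only. edgeR 4.0.16 (TMM, quasi-likelihood, R 4.3.3) was fitted to all 8633 goat genes with Benjamini-Hochberg adjustment, its standard errors were derived from the F statistic, and DESeq2 1.42.0 was the alternative. The p-values measure the spread of the treated libraries only, which may hold time, animal and technical differences, and the single control library is assumed to vary like them. Scripts were tested on simulated data and used Python 3.11.15, pandas 2.3.3, numpy 2.4.6, scipy 1.17.1, Biopython 1.88 and matplotlib 3.10.9.

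Named genes are the listed members and, of the pathway list, the 5 lowest and 5 highest genes, ranked by whichever treated library lay nearest to an x-fold of 1 among genes on 1 side in all 3, and the 3 lowest and 3 highest per library whose interval is outside the limits (no gene qualified as highest), the 3 genes nearest to the member with the most counts, and GAPDH. The ranking used the goat-paired scale, where 0 of the 72 tested pathway genes were above 1 in treated library 2. The 5 highest could thus not be filled, and the rule named low genes only. On the nuclear scale 21 and 18 of the 72 were above 1 in treated libraries 1 and 3. The members and lists were chosen with earlier results of these data known. Alternatives were other totals, scalings, identity and count minimums, limits, single unigenes, FPKM times length with a pseudocount of 0.1, and leaving out each treated library.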

Additional observations from a re-analysis of the deposited data

Results flagged for a closer look

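Unigenes outside the members that match a listed gene were set apart where their exact interval on the goat-paired scale lay above 1 in a treated library. For IGF2, c2768_g1 had an x-fold of 4.57 in treated library 1, c9668_g1 of 2.56 (1.33 to 5.15) in treated library 3 and c15300_g1 of 4.64 (1.46 to 19.4) in treated library 3. The IGFBP-5 unigene c13709_g1 reached 3.72 in treated library 3. The INSR unigene c13427_g1, without a protein match, reached 1.97 (1.5 to 2.60) in treated library 1. The PIK3R1 unigenes c10719_g1 and c12278_g2, also without a protein match, reached 1.38 (1.13 to 1.69) and 2.70 (1.86 to 3.97) in treated library 1.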

How the results depend on the processing

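The counts of genes past the limits depended on the total. Without mitochondrial genes in the total, the genes below 0.6 numbered 3 of 6 for treated library 2, 3 for treated library 3 and 2 in all 3, 1 was above 3, and 14 pathway genes were below 0.6 in all 3. With the median x-fold of goat genes set to 1, these values were 2, 3, 1, 1 and 6. The next 2 alternatives were chosen after seeing the data. With the other spellings of IGF1R and IGFBP5 included, 1 of 8 genes was above 3, and with all unigenes given by the best nucleotide match, 2 of 8 were. By nucleotide match, 3 of 8 genes were below 0.6 in treated library 1 and 3 of 8 in all 3 libraries, against 4 of 6 each. The genes changed too, as INSR (0.698) and PIK3R1 (0.969) were no longer below 0.6 in treated library 1. The other alternatives kept these counts within 1.5 times. Leaving out each treated library gave 4 to 5 genes below 0.6 in all remaining libraries, 39 to 54 pathway genes, 0 genes above 3 and 0 genes called by edgeR. In every alternative fit of edgeR and in DESeq2, 0 of the 6 genes were called, with 0 to 3 at an unadjusted p below 0.05. FOXO1 kept its call without treated library 1 (adjusted p = 0.0268).

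In treated library 2 several x-folds turned direction when mitochondrial genes were left out: IGF2 (18.2), SESN3 (2.33, on 2 counts), GAPDH (1.72), IGFBP3 (9.37) and IGFBP4 (8.22). With the median set to 1 they were 29.6, 3.79, 2.80, 15.2 and 13.4, and AKT2 became 1.62. In treated library 3, IRS1 became 1.09 and AKT2 1.10 with the median set to 1. The first alternative takes only the mitochondrial counts out of the total, and the cause of the further move with the median set to 1 was not tested. Depth limits treated library 2 most, where the members have 29 counts in all. No paired analysis was possible because there is only 1 control library.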
